A study of Mus musculus with 12 samples.

Results

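Primary mouse liver sinusoidal endothelial cells (LSECs) that had shared medium with Hepa1-6 hepatoma cells were compared with LSECs cultured without them. The groups were LSEC co-culture, with 3 libraries, and LSEC alone, with 3 libraries, which are 6 of the 12 libraries of the series; the other libraries come from Hepa1-6 cells. In co-culture, 500000 LSECs lay at the bottom of a well and 100000 Hepa1-6 cells sat in an insert with 3 μm pores. All wells were washed 3 times and then held for 24 h in DMEM with 2% fetal bovine serum and penicillin and streptomycin before RNA was taken. Hepa1-6 is an established mouse hepatoma line. The strain, age and number of the mice that gave the LSECs are not given in the sources used here, nor is whether wells of LSECs alone held an empty insert. The labels do not say whether replicates came from separate cell preparations, so p-values measure only the spread between these libraries. The deposited table lists 45777 genes, and 15256 of these had enough counts to be tested.

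LSECs are the fenestrated endothelial cells of the liver capillaries. They clear macromolecules from the portal blood through scavenger and Fc receptors, present antigen, and secrete angiocrine factors that act on hepatocytes and stellate cells. On contact with inflammatory signals, endothelial cells activate NF-kB, a family of transcription factors that induces cytokines, chemokines and leukocyte adhesion molecules together with its own inhibitors. LSEC preparations commonly hold some Kupffer cells, the resident macrophages of the same capillaries.

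The libraries held 36590767 to 43941801 counts in co-culture and 35459408 to 48870698 alone, so that 3 counts, the limit that a count of 0 allows, corresponded to 0.0614 to 0.0846 CPM, counts scaled by library size. Replicate 1 of either culture differed from replicates 2 and 3 along transcript length. Relative to their group's mean, genes in the shortest of 5 transcript length classes (median 992 bases) had a median deviation of 0.45 on the log2 scale in co-culture replicate 1 and 0.56 in alone replicate 1. Genes in the longest class (median 6729.5 bases) had -0.40 and -0.45 in the same libraries. Same-numbered libraries deviated together, with correlations of 0.750, 0.423 and 0.461 for numbers 1, 2 and 3. Numbers 2 and 3 correlated as well with each other (0.473 and 0.400), so their values do not show pairing and only number 1 stood apart. The counts for gene lists are therefore given in 2 fits of edgeR's quasi-likelihood test, without and with replicate number as a block. Values of single genes and shares of motifs come from the fit without the block wherever no block is named. An adjusted p under 0.05 is the threshold in both, and ± after a log2 fold change is the standard error.

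Endothelial markers were abundant in both cultures. The 22 pan-endothelial markers summed to 15839 to 17037 CPM in co-culture and 15032 to 16450.5 CPM alone, and the 20 sinusoidal markers to 7483 to 9303 CPM in co-culture and 5538 to 7287 CPM alone. Macrophage and Kupffer cell markers were also abundant, with a summed level over 20 genes of 3631 to 5047 CPM in co-culture and 2434 to 3738 CPM alone and none of the 20 at 0 in all libraries. In same-numbered pairs this sum was 1.35, 1.35 and 1.49 times as high in co-culture. Of its 18 tested members Adgre1, Itgam and Cd14 rose and Vsig4 and Cd5l fell, and with the block 9 rose and 6 fell. In bulk RNA, a change in the number of macrophages and a change of RNA per cell cannot be told apart. The lists for stellate cells and fibroblasts (19 genes) summed to 253 to 282 CPM in co-culture and 189.6 to 227 CPM alone, those for hepatocytes (20 genes) to 15.3 to 28.6 CPM in co-culture and 10.3 to 20.6 CPM alone, and those for cholangiocytes and mesothelium (11 genes) to 20.2 to 21.7 CPM in co-culture and 22.3 to 30.01 CPM alone. Dendritic cell markers (10 genes, Xcr1 and Siglech at 0) summed to 55.6 to 65.1 CPM in co-culture and 49.8 to 65.03 CPM alone. Neutrophil markers (10 genes, Ly6g, Retnlg and Cxcr2 at 0) summed to 7.18 to 16.5 CPM in co-culture and 0.272 to 2.57 CPM alone, of which S100a8 rose. B and plasma cell markers (10 genes) summed to 16.6 to 19.3 CPM in co-culture and 8.097 to 11.6 CPM alone, of which Ighm and Jchain rose. T and NK cell markers (15 genes, Cd3g, Cd8b1 and Ncr1 at 0) stayed at 0.758 to 1.25 CPM in co-culture and 0.818 to 0.967 CPM alone.

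**Figure D1:**
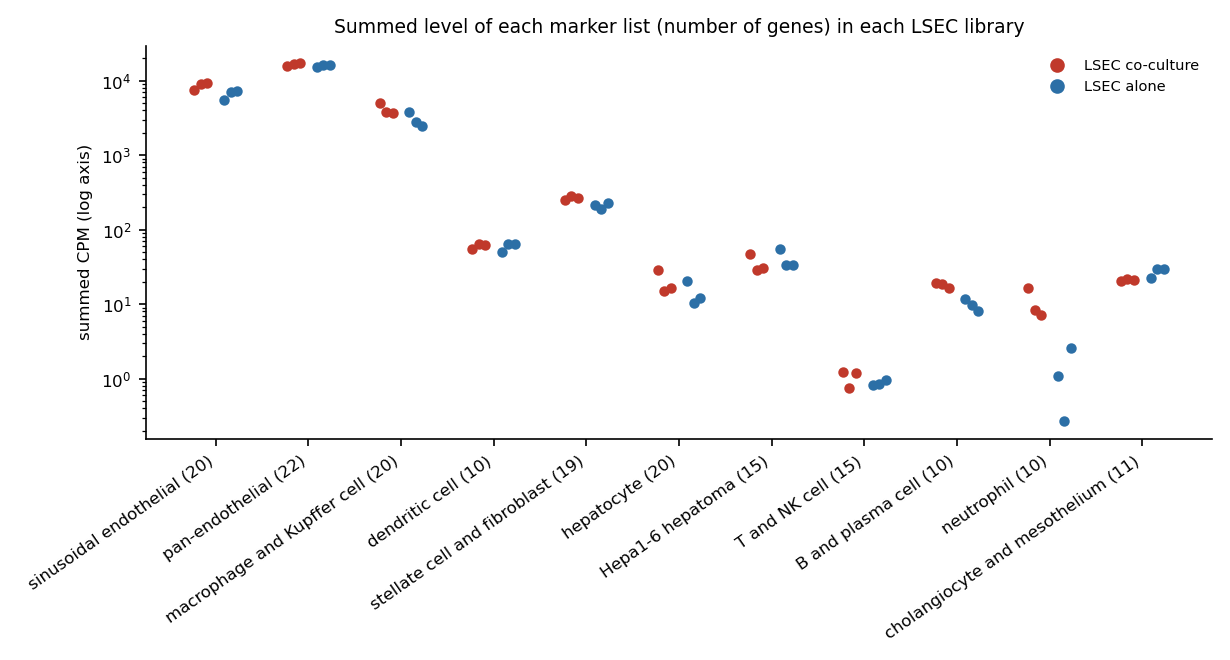
Summed CPM of the genes in each marker list (log axis) in each LSEC library, with LSEC co-culture left of LSEC alone. The pan-endothelial sums lie between 15032 and 17037 CPM in all 6 libraries, and the macrophage sums between 2434 and 5047 CPM.

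The list of 15 Hepa1-6 marker genes summed to 28.7 to 47.5 CPM in co-culture and 33.7 to 55.2 CPM alone, much of it from Trf, transferrin, which had 2364 counts over the 3 co-culture libraries and 3460 over the 3 libraries alone. In Hepa1-6 cells alone, on a scale over all 12 libraries, Ahsg and Apoh of this list had 0 counts and H19 0.0222 CPM, so they do not mark these cells. The abundant Hepa1-6 genes Alb (2031 CPM in Hepa1-6 cells alone) and Afp (1544 CPM) were detected in LSECs of either culture, Alb with 1178 counts in co-culture and 892 alone and Afp with 214 in co-culture and 274 alone. Alb was higher with the block only (log2 fold change 0.45), and Afp passed in neither fit. Rbp4 (486 CPM) had 97 counts in co-culture and 73 alone. In contrast, Pnma5 (236 CPM), Cxcl15 (227 CPM), Bche (213 CPM), Serpinb7 (125 CPM) and Tff3 (4.82 CPM) had 0 counts in all 6 LSEC libraries.

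Without the block, 471 genes passed the test, of which 332 rose and 139 fell in co-culture; this is 3.09% of tested genes, 2.18% higher and 0.911% lower. With the block, 5082 genes passed, of which 2550 rose and 2532 fell, or 33.3%, 16.7% and 16.6% of tested genes. All 471 genes called without the block were also called with it, in the same direction. With an offset for transcript length in place of the block, 1008 genes rose and 757 fell. Large changes were mostly rises: 150 genes rose and 26 fell at least 4-fold without the block, and 207 rose and 57 fell with it. The median log2 fold change of all tested genes was -0.03 without and -0.02 with the block. The count without the block depended on single libraries, with 293 calls without co-culture replicate 1, 146 and 160 without co-culture replicate 2 or 3, and 155 and 150 without alone replicate 2 or 3. Without alone replicate 1 it was 490. For gene lists, leave-one-out gives the lowest and highest number of rises, then of falls, over these 6 fits, or over the 3 fits with the block that leave out 1 replicate number, where either moved by more than 1.5 times. Each list count is to be read beside the shares of all tested genes. These were 2.18% higher and 0.911% lower without the block, and 16.7% and 16.6% with it.

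**Figure D2:**
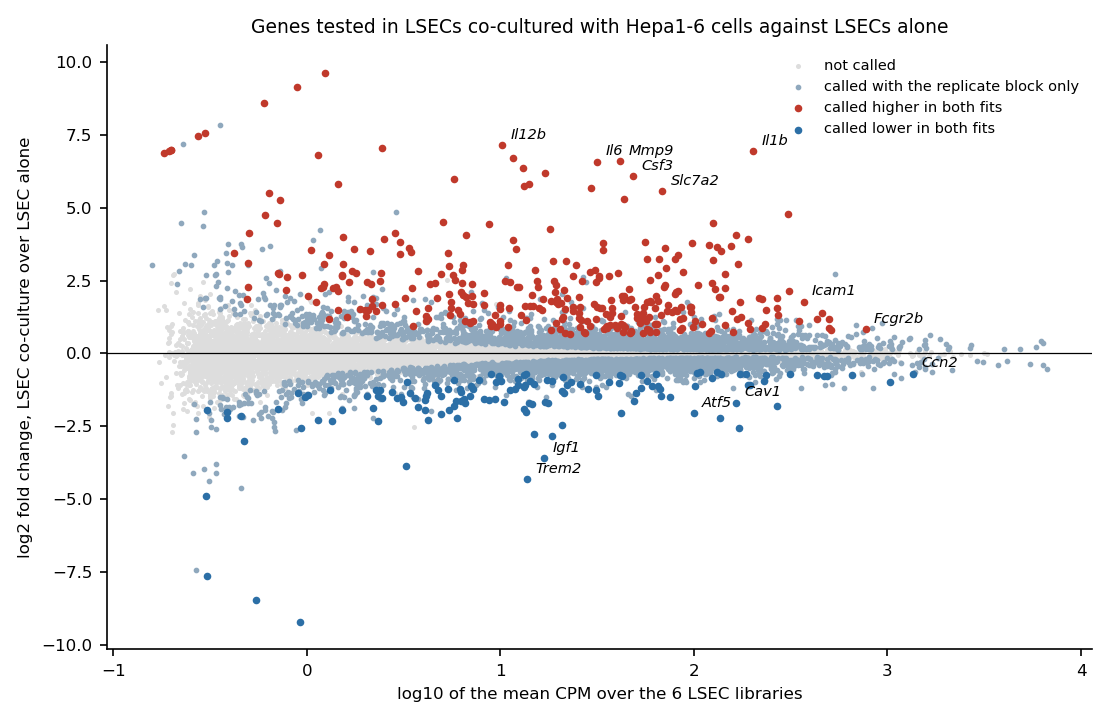
Each point is 1 of the 15256 tested genes, by the log10 of its mean CPM over the 6 LSEC libraries and its log2 fold change, LSEC co-culture over LSEC alone. The 332 rises called in both fits reach far above a log2 fold change of 5, with Il1b highest among abundant genes, while most of the genes called with the block alone lie close to 0.

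Secreted inflammatory signals were among the largest rises. Of the inflammatory cytokines, 9 of 17 tested members rose and 0 fell without the block (leave-one-out 6 to 10 and 0 to 0), and 13 rose and 0 fell with it; the list's median log2 fold change was 3.36. Il12b, the p40 subunit shared by interleukins 12 and 23, had 22.5, 21.7 and 16.9 CPM in co-cultured LSECs, against 0.189, 0.109 and 0.111 CPM in LSECs alone. Il1b, the inflammasome-processed interleukin 1, had 552, 336 and 319 CPM in co-cultured LSECs, against 4.78, 2.75 and 2.18 CPM in LSECs alone. The lowest co-culture library was 89.5-fold above the highest library alone for Il12b and 66.7-fold for Il1b. The test gave log2 fold change 7.14 ± 0.29, adjusted p = 0.000426 for Il12b and log2 fold change 6.93 ± 0.46, adjusted p = 0.00152 for Il1b. Il6, which signals through gp130 to STAT3, had 75.8, 58.5 and 52.6 CPM in co-cultured LSECs, against 0.566, 0.979 and 0.387 CPM in LSECs alone (log2 fold change 6.58 ± 0.39, adjusted p = 0.00114). Il1a, the interleukin 1 that can act from the cell membrane, had 610.2, 602 and 565 CPM in co-cultured LSECs, against 17.8, 23.8 and 22.2 CPM in LSECs alone (log2 fold change 4.79 ± 0.17, adjusted p = 0.000426). Its secreted antagonist Il1rn had 197, 177 and 176 CPM in co-cultured LSECs, against 11.6, 14.7 and 13.04 CPM in LSECs alone (log2 fold change 3.79 ± 0.15, adjusted p = 0.000426). Tnf, the founding member of the tumour necrosis factor family, had 185, 137 and 131 CPM in co-cultured LSECs, against 14.5, 15.5 and 13.8 CPM in LSECs alone (log2 fold change 3.36 ± 0.19, adjusted p = 0.000977). Il10, an anti-inflammatory cytokine, rose too and had 34.6, 21.3 and 22.1 CPM in co-cultured LSECs, against 0.398, 0.516 and 0 CPM in LSECs alone (log2 fold change 6.36 ± 0.80, adjusted p = 0.0127). The interleukin 27 subunits Il27 (4.15) and Ebi3 (1.91) rose together on the log2 scale. Il18, Lif, Il19 and Osm passed with the block only, and Il11, Il15, Il23a and Il33 passed in neither fit. These cytokines are also made by macrophages, whose summed markers were at most 1.49 times as high in co-culture; their part in these rises was not tested.

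The RefSeq promoters of Il12b, Il1b, Il6 and Cxcl3 are shown on mm10 (GRCm38.p6), 5′ to 3′ on the gene's strand. Among the 12 largest rises, they were the top cytokine, chemokine, colony-stimulating factor or TNF family genes with a RefSeq promoter. Each is 300 bases long, of which the last 50 follow the gene's start. Capitals mark every match, on either strand, to NF-kB (GGANTTTCC, or the wider GGNNNTTCC, which contains it), AP-1 (TGANTCA) and C/EBP (TTGCNNAA) motifs.
Il12b, chr11:44399813-44400112, plus strand: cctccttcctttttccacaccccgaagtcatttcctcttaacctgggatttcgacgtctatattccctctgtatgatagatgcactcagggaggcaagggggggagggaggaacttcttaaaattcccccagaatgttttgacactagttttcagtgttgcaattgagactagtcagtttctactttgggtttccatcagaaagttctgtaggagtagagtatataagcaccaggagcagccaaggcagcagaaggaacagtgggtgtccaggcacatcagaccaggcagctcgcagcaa
Il1b, chr2:129371090-129371389, minus strand: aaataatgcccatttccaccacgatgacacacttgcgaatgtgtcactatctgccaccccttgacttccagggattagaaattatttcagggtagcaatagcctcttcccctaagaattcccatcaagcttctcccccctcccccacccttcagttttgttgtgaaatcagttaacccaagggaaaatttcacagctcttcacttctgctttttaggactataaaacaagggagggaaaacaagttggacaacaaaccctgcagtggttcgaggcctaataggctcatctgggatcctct
Il6, chr5:30012864-30013163, plus strand: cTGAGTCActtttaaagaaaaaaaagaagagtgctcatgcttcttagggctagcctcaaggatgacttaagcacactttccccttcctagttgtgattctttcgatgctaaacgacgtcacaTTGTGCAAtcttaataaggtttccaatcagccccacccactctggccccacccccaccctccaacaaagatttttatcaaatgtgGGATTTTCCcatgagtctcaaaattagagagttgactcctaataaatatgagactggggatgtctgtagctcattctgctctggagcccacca
Cxcl3, chr5:90785851-90786150, plus strand: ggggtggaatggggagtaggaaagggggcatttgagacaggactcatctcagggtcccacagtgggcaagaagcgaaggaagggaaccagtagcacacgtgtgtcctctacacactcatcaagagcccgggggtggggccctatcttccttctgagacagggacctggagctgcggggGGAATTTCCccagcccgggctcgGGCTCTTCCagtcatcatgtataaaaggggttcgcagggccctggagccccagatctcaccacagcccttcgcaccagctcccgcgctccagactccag
The Il6 window held a strict NF-kB match that starts 43 bases before the gene's start, a C/EBP match at 128 bases and an AP-1 match at 249 bases. The Cxcl3 window held a strict NF-kB match at 72 bases and a second, wider match at 49 bases. None of these letters occur in the Il12b and Il1b windows.

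The strict NF-kB motif was found in 17 of the 243 genes called higher that matched a RefSeq promoter (6.996%), in 1 of 112 called lower (0.893%) and in 177 of 11088 tested genes (1.596%). Of all 32851 RefSeq promoters, 1.25% held it. The wider motif was found in 33.7% of genes called higher, 24.1% of genes called lower and 25.3% of tested genes, AP-1 in 14.0%, 8.93% and 6.66%, and C/EBP in 18.5%, 13.4% and 10.4%; the shares of all promoters were 18.5%, 7.81% and 10.8%. A match describes the sequence and is not a mapped binding site. Among the cytokines, chemokines, colony-stimulating factors and TNF family genes that rose, 5 of 24 with a promoter held the strict motif, and they are set side by side here because 4 of the 5 are CXC chemokines. The match is in capitals, with 10 bases on either side.
Cxcl1, chr5:90891165-90891193, plus strand: ctgtactccgGGAATTTCCctggcccgga
Cxcl2, chr5:90903793-90903821, plus strand: ctgagctcagGGAATTTCCctggtccccg
Cxcl3, chr5:90786019-90786047, plus strand: agctgcggggGGAATTTCCccagcccggg
Cxcl10, chr5:92349029-92349057, minus strand: gaggggagagGGAAATTCCaagttcatgg
Il6, chr5:30013061-30013089, plus strand: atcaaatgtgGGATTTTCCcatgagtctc
The Cxcl1, Cxcl2 and Cxcl3 windows share the 9 letters GGAATTTCC.

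Many chemokines rose. Of the CXC chemokines, 7 of 12 tested members rose and 0 fell without the block, and 10 rose and 0 fell with it, and of the CC chemokines, 7 of 13 tested members rose and 0 fell without the block (leave-one-out 3 to 7 and 0 to 0), and 10 rose and 1 fell with it (leave-one-out 9 to 11 and 0 to 1); the median log2 fold changes were 2.08 and 3.21, or 3.21 for the CC list with Ccl12 and Ccl22 at their lower bounds. Neutrophil attractants that signal through Cxcr2 were among the rises, while Ppbp, another of them, passed in neither fit. Cxcl1 had 272, 232 and 225 CPM in co-cultured LSECs, against 22.02, 16.9 and 18.2 CPM in LSECs alone, and Cxcl2 had 261, 209 and 195 CPM in co-cultured LSECs, against 19.2, 16.2 and 14.3 CPM in LSECs alone. The lowest co-culture library was 10.2-fold above the highest library alone for Cxcl1 and 10.1-fold for Cxcl2. Cxcl3 was nearly silent alone and had 44.7, 30.2 and 25.7 CPM in co-cultured LSECs, against 0.419, 0.544 and 0.387 CPM in LSECs alone (log2 fold change 6.20 ± 0.32, adjusted p = 0.000711). Cxcl5 had 17.9, 16.7 and 15.5 CPM in co-cultured LSECs, against 0.692, 0.625 and 0.995 CPM in LSECs alone. These genes are close relatives whose shared reads may have been divided between them in the authors' counting. Cxcl3 and Cxcl5 were higher still in Hepa1-6 cells alone, at 76.2 and 42.3 CPM on a scale over all 12 libraries. The interferon-inducible T cell attractants Cxcl9 (1.95) and Cxcl10 (1.60) rose less on the log2 scale. Among CC chemokines, the monocyte and macrophage attractant Ccl3 had 486, 301 and 287 CPM in co-cultured LSECs, against 29.00, 21.3 and 19.5 CPM in LSECs alone, and Ccl9 had 362, 259 and 249 CPM in co-cultured LSECs, against 26.9, 23.02 and 16.4 CPM in LSECs alone. Ccl7, a monocyte attractant acting on Ccr2, had 316, 186 and 176 CPM in co-cultured LSECs, against 31.4, 22.8 and 18.7 CPM in LSECs alone. Ccl12 and Ccl22 had 0 counts in all libraries alone and 299 and 141 counts in co-culture, at least 99.4-fold and 48.3-fold higher against 3 counts over the group. Ccl2, the main Ccr2 ligand, passed with the block only (1.04, with 1569, 1138 and 1075 CPM in co-culture and 737, 547 and 536 CPM alone). Ccl6 was the only CC chemokine that fell, with the block only (-0.26).

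Of colony-stimulating factors and their receptors, 5 of 10 tested members rose and 0 fell without the block (leave-one-out 2 to 4 and 0 to 0), and 7 rose and 0 fell with it (leave-one-out 7 to 7 and 0 to 1). Csf3, the granulocyte colony-stimulating factor, had 133, 78.3 and 74.2 CPM in co-cultured LSECs, against 1.803, 1.09 and 1.24 CPM in LSECs alone (log2 fold change 6.09 ± 0.38, adjusted p = 0.00125). Its receptor Csf3r had 32.2, 32.2 and 33.1 CPM in co-cultured LSECs, against 6.31, 7.18 and 5.42 CPM in LSECs alone. The shared beta chains Csf2rb (1.56) and Csf2rb2 (1.46) rose as well, and as near-identical neighbours they are uncertain individually. Csf2 rose at a low level, with 2.25, 0.994 and 0.791 CPM in co-cultured LSECs, against 0.0629, 0.109 and 0 CPM in LSECs alone. Csf1, the macrophage growth factor, was abundant in either culture and had 778, 948 and 887 CPM in co-cultured LSECs, against 642, 833 and 855 CPM in LSECs alone, passing with the block only (0.16), and its receptor Csf1r passed in neither fit (-0.12).

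**Figure D3:**
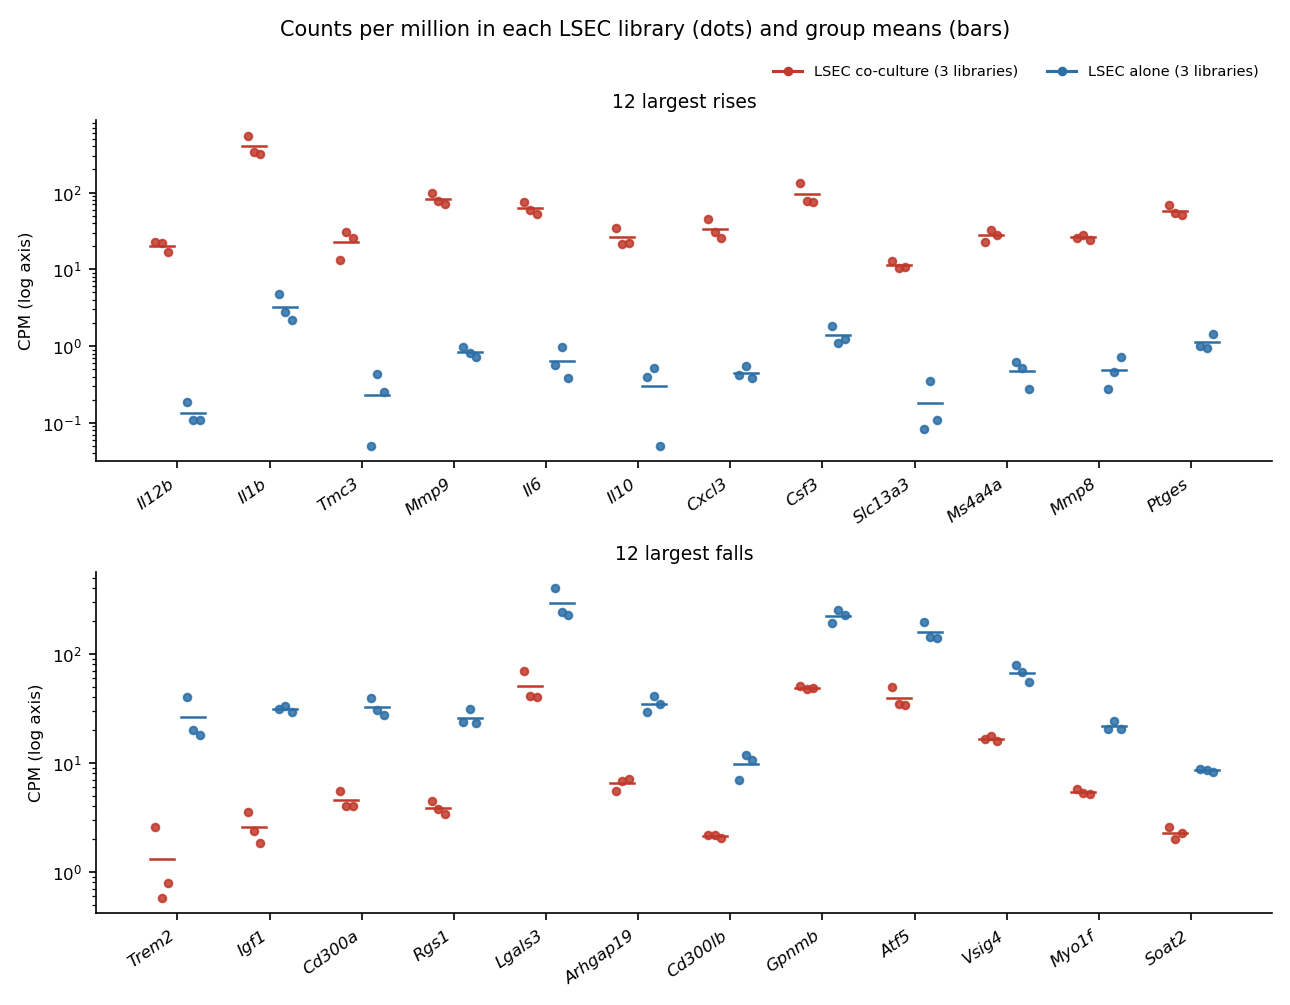
CPM (log axis) of the 12 largest rises and the 12 largest falls in each LSEC library, with LSEC co-culture left of LSEC alone; short bars are group means, and libraries with 0 counts are drawn at the lowest position. By the rule that picked these 24 genes, the 3 co-culture libraries of each lie on 1 side of the 3 libraries alone. Il1b runs from 319 to 552 CPM in co-culture and from 2.18 to 4.78 CPM alone.

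Receptors of microbial and cytokine signals moved in part. Of Toll-like receptors and adaptors, 4 of 21 tested members rose and 1 fell without the block (leave-one-out 2 to 4 and 0 to 1), and 14 rose and 2 fell with it (leave-one-out 10 to 14 and 1 to 2). Tlr1, the partner of Tlr2 in lipopeptide sensing, had 35.6, 34.9 and 34.98 CPM in co-cultured LSECs, against 7.59, 8.26 and 7.02 CPM in LSECs alone (log2 fold change 2.19 ± 0.13, adjusted p = 0.00114). Tlr2 itself rose by 0.69 on the log2 scale and the lipopolysaccharide co-receptor Cd14 by 1.95. Irak3, an inhibitor of Toll-like receptor signalling, had 53.02, 58.7 and 58.8 CPM in co-cultured LSECs, against 16.8, 21.6 and 18.6 CPM in LSECs alone. Tlr13, a sensor of bacterial ribosomal RNA in mice, fell and had 9.64, 12.3 and 14.1 CPM in co-cultured LSECs, against 22.2, 36.8 and 33.4 CPM in LSECs alone, and Tlr4 passed in neither fit (0.01). Of interleukin and interferon receptors, 3 of 19 tested members rose and 0 fell without the block (leave-one-out 0 to 3 and 0 to 0), and 13 rose and 1 fell with it (leave-one-out 11 to 13 and 1 to 3). The interleukin 4 receptor chain Il4ra (1.21), the common gamma chain Il2rg (1.10) and the interferon receptor chain Ifnar2 (0.78) rose. The gp130 chain Il6st had 587, 1032 and 1127 CPM in co-culture and 274, 543 and 578 CPM alone and passed with the block only. Of the TNF superfamily list, 3 of 14 tested members rose and 0 fell without the block (leave-one-out 1 to 5 and 0 to 0), and 9 rose and 1 fell with it. The rises were Tnfrsf1b, the second TNF receptor, with 222, 213 and 191 CPM in co-cultured LSECs, against 33.4, 41.2 and 43.1 CPM in LSECs alone, and Tnfrsf11a (1.65) and Tnfrsf9 (2.25). Tnfrsf12a, the receptor for TWEAK, fell with the block only (-1.16).

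NF-kB genes rose, several inhibitors among them. Of 24 NF-kB subunits and inhibitors, 12 rose and 0 fell, and 18 rose and 3 fell with the block (leave-one-out 16 to 18 and 1 to 3). Nfkbia, which holds NF-kB in the cytoplasm, had 412, 324 and 311 CPM in co-cultured LSECs, against 132, 121 and 118 CPM in LSECs alone (log2 fold change 1.48 ± 0.16, adjusted p = 0.00702). Tnfaip3, the ubiquitin editor A20, had 107, 144 and 138 CPM in co-cultured LSECs, against 28.7, 49.01 and 49.8 CPM in LSECs alone, and its partner Tnip1 had 424, 376 and 365 CPM in co-cultured LSECs, against 162, 153 and 149 CPM in LSECs alone. The nuclear inhibitor family members Nfkbiz (2.04), Bcl3 (1.93) and Nfkbid (1.09) rose, as did Zc3h12a, an RNase that degrades cytokine transcripts (1.83). Of the subunits, Nfkb2 rose (0.69), Relb (0.63), Rel (0.83) and Nfkb1 (0.74) passed with the block only, and Rela fell with the block only (-0.25). From 4 to 11 of the list rose in the leave-one-out fits without the block.

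Immediate early factors were mostly lower with the block. Of them, 1 of 24 tested members rose and 2 fell without the block (leave-one-out 0 to 0 and 0 to 2), and 5 rose and 14 fell with it (leave-one-out 4 to 7 and 9 to 14). The AP-1 member Fosl1 had 25.8, 30.99 and 27.6 CPM in co-cultured LSECs, against 64.5, 74.6 and 76.96 CPM in LSECs alone (log2 fold change -1.37 ± 0.14, adjusted p = 0.00613), and Mafk fell as well (-0.65). Atf3 had 41.96, 37.8 and 37.4 CPM in co-culture and 66.1, 58.1 and 56.4 CPM alone and Myc had 101, 99.4 and 97.9 CPM in co-culture and 149, 139 and 146 CPM alone, and both were lower with the block only. Egr1 was the only member that rose without the block (0.73). Ier3 (0.92 with the block), Junb (0.54 with the block), Batf and Egr3 were higher with the block only. Among the inhibitors of MAP kinase signalling, 1 of 17 tested members rose and 3 fell without the block (leave-one-out 0 to 1 and 1 to 2), and 3 rose and 9 fell with it. Dusp2, a nuclear phosphatase of ERK, had 16.04, 8.89 and 9.36 CPM in co-cultured LSECs, against 1.68, 1.36 and 1.11 CPM in LSECs alone. Dusp14 (-1.58), Spry4 (-1.25) and Dusp5 (-0.72) fell.

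STAT3-linked and interferon-linked genes rose in smaller numbers. Of STAT3 and SOCS genes, 4 of 18 tested members rose and 0 fell without the block (leave-one-out 1 to 6 and 0 to 0), and 13 rose and 0 fell with it. Socs3, the feedback inhibitor of gp130 signalling, had 141, 106 and 101 CPM in co-cultured LSECs, against 25.2, 21.7 and 23.9 CPM in LSECs alone, and the acute phase gene Lcn2 had 221, 126 and 116 CPM in co-cultured LSECs, against 29.7, 18.3 and 17.4 CPM in LSECs alone. Saa3, an acute phase apolipoprotein, had 1491, 665 and 647 CPM in co-culture and 245, 95.4 and 79.7 CPM alone; its first replicate stood apart in both cultures, and it passed with the block only (log2 fold change 2.79 ± 0.08 with the block, adjusted p = 3.27e-08). Of interferon-stimulated genes, 5 of 34 tested members rose and 1 fell without the block (leave-one-out 2 to 6 and 0 to 1), and 22 rose and 1 fell with it (leave-one-out 19 to 24 and 1 to 2). The guanylate-binding proteins Gbp2 (1.60) and Gbp3 (1.39) and the immunity-related GTPase Iigp1 (1.78) rose. Oas3, a sensor of double-stranded RNA, fell (-1.52). Isg15 had 56.1, 29.5 and 27.3 CPM in co-culture and 39.9, 19.7 and 15.9 CPM alone and passed with the block only.

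Enzymes of the inflammatory response also changed. Ptgs2, the inducible cyclooxygenase, had 74.4, 120.0 and 119 CPM in co-cultured LSECs, against 3.27, 8.97 and 9.700 CPM in LSECs alone (log2 fold change 3.83 ± 0.47, adjusted p = 0.0115). Ptges, which makes prostaglandin E2 from its product, had 67.8, 54.2 and 51.4 CPM in co-cultured LSECs, against 1.01, 0.951 and 1.44 CPM in LSECs alone (log2 fold change 5.66 ± 0.25, adjusted p = 0.000426). Hpgds, the prostaglandin D synthase of haematopoietic cells, fell and had 5.84, 8.29 and 6.22 CPM in co-cultured LSECs, against 18.7, 25.5 and 23.3 CPM in LSECs alone. Over the prostaglandin list, 2 of 19 tested members rose and 1 fell without the block (leave-one-out 1 to 3 and 0 to 1). With it, 6 rose and 2 fell (leave-one-out 5 to 8 and 1 to 2), against 16.7% and 16.6% of all tested genes. Slc7a2, the cationic amino acid transporter that supplies arginine, had 98.5, 159 and 146 CPM in co-cultured LSECs, against 1.89, 3.45 and 3.21 CPM in LSECs alone (log2 fold change 5.56 ± 0.34, adjusted p = 0.00125). Acod1, which makes itaconate, rose by 2.53, while the inducible nitric oxide synthase Nos2 passed in neither fit (0.36). Over the arginine and nitric oxide list, 2 of 16 tested members rose and 0 fell without the block, and 7 rose and 4 fell with it (leave-one-out 4 to 7 and 4 to 5).

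Several matrix-degrading proteases rose. Of metalloproteinases and inhibitors, 5 of 21 tested members rose and 1 fell without the block (leave-one-out 4 to 5 and 0 to 2), and 11 rose and 4 fell with it. Mmp9, a gelatinase, had 98.4, 78.3 and 70.1 CPM in co-cultured LSECs, against 0.965, 0.816 and 0.719 CPM in LSECs alone (log2 fold change 6.60 ± 0.24, adjusted p = 0.000426). The collagenases Mmp8 and Mmp13 had 25.8, 28.1 and 24.1 CPM in co-cultured LSECs, against 0.273, 0.462 and 0.719 CPM in LSECs alone for Mmp8 and 305, 326 and 307 CPM in co-cultured LSECs, against 15.999, 21.7 and 17.5 CPM in LSECs alone for Mmp13. The 3 genes showed no overlap between cultures, which was a condition for naming Mmp9 and Mmp8 among the largest rises. Of 15256 tested genes, 1847 had all co-culture libraries above all libraries alone. Adamts4 (2.67) and Mmp3 (1.98) rose, and Timp2, an inhibitor of these enzymes, fell (-0.96). Of matrix and basement membrane genes, 1 of 27 tested members rose and 0 fell without the block, and 5 rose and 12 fell with it. The collagen crosslinking enzyme Lox was the rise, with 83.3, 113 and 113 CPM in co-cultured LSECs, against 6.27, 11.9 and 14.2 CPM in LSECs alone (log2 fold change 3.25 ± 0.34, adjusted p = 0.00665).

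Of coagulation genes, 1 of 19 tested members rose and 0 fell without the block (leave-one-out 1 to 2 and 0 to 0), and 10 rose and 5 fell with it. Serpinb2, an inhibitor of plasminogen activators, had 80.9, 87.9 and 86.9 CPM in co-cultured LSECs, against 1.07, 2.64 and 2.82 CPM in LSECs alone (log2 fold change 5.29 ± 0.40, adjusted p = 0.00237). Of complement genes, 5 of 21 tested members rose and 1 fell without the block, and 12 rose and 4 fell with it. The alternative pathway genes C3 and Cfb rose, with 103, 126 and 109.7 CPM in co-cultured LSECs, against 12.4, 21.2 and 18.6 CPM in LSECs alone for C3 and 136, 118 and 104 CPM in co-cultured LSECs, against 24.7, 24.1 and 20.3 CPM in LSECs alone for Cfb. Hepa1-6 cells alone held more C3, at 326 CPM on the 12-library scale. The complement receptor chains Itgam (4.47) and Itgb2 (1.58) and the C5a receptor C5ar1 (1.01) rose, and the complement receptor of Kupffer cells, Vsig4, fell. The classical pathway genes C1qa (-0.68), C1qb (-0.64) and C1qc (-0.98) fell with the block only. These receptors and C1q are macrophage genes, and the part of the macrophage share in them was not tested.

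RNA of some leukocyte adhesion molecules rose, while Icam2 passed in neither fit. The cultures also held macrophage transcripts, and which cells gave this RNA was not tested. Of the adhesion and junction list, 4 of 22 tested members rose and 1 fell without the block (leave-one-out 3 to 4 and 0 to 1), and 12 rose and 2 fell with it (leave-one-out 9 to 13 and 1 to 2). Icam1, the ligand of leukocyte integrins, had 600.4, 566 and 552 CPM in co-cultured LSECs, against 169.8, 162 and 165 CPM in LSECs alone (log2 fold change 1.78 ± 0.12, adjusted p = 0.00155). Selp, the selectin stored in endothelial granules, had 242, 241 and 236 CPM in co-cultured LSECs, against 38.9, 54.8 and 55.9 CPM in LSECs alone (log2 fold change 2.26 ± 0.17, adjusted p = 0.00237). Sele, the selectin induced on activated endothelium, had 66.9, 80.3 and 81.7 CPM in co-cultured LSECs, against 11.7, 17.04 and 19.95 CPM in LSECs alone. The groups were far apart for the 3 genes. Vcam1 had 225, 263 and 250.2 CPM in co-culture and 135, 188 and 182 CPM alone and passed with the block only (log2 fold change 0.55 ± 0.06 with the block, adjusted p = 0.000133). The junction protein Mcam fell (-0.72), and the endothelial cadherin Cdh5 fell slightly, with the block only (-0.22). Ackr1, an endothelial receptor that binds chemokines without signalling, belongs to no list; it had 51.02, 28.1 and 24.2 CPM in co-cultured LSECs, against 2.91, 0.951 and 1.35 CPM in LSECs alone (log2 fold change 4.27 ± 0.54, adjusted p = 0.0129), and was chosen after its values were seen.

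Sinusoidal genes were higher with the block. Of the 20 sinusoidal markers 19 were tested; 2 rose and 0 fell without the block and 17 rose and 0 fell with it, against 16.7% of all tested genes called higher. Fcgr2b, the Fc receptor by which LSECs clear immune complexes, was the most abundant gene called higher and had 1005, 946 and 1024 CPM in co-cultured LSECs, against 603, 498 and 548 CPM in LSECs alone (log2 fold change 0.84 ± 0.14, adjusted p = 0.0344). Bmp2, the angiocrine signal that induces hepcidin in hepatocytes, had 227, 253 and 268 CPM in co-cultured LSECs, against 92.4, 107 and 109.9 CPM in LSECs alone (log2 fold change 1.26 ± 0.14, adjusted p = 0.00665). The C-type lectin Clec4g had 135, 88.2 and 94.4 CPM in co-culture and 69.4, 38.2 and 44.6 CPM alone (log2 fold change 1.07 ± 0.06 with the block, adjusted p = 3.09e-06), and the hyaluronan receptor Stab2 had 578, 909 and 912 CPM in co-culture and 448, 798 and 798 CPM alone (0.24 with the block). Of scavenger and endocytic receptors, 2 of 18 tested members rose and 1 fell without the block (leave-one-out 0 to 3 and 0 to 1), and 13 rose and 3 fell with it. Msr1 rose (1.47), and Cd163, the haemoglobin scavenger of macrophages, fell and had 5.33, 7.69 and 6.88 CPM in co-cultured LSECs, against 19.3, 25.6 and 19.4 CPM in LSECs alone. None of the 24 endothelial transcription factors passed without the block, where 7 members had an unadjusted p under 0.05 and DESeq2 called 3 and limma 1; with it 12 rose and 2 fell (leave-one-out 9 to 14 and 2 to 2). Among them Sox18 had 209.6, 148 and 157 CPM in co-culture and 107, 81.03 and 86.5 CPM alone, and the flow-responsive Klf2 had 12.1, 6.83 and 7.56 CPM in co-culture and 20.7, 12.1 and 12.7 CPM alone and fell with the block.

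Angiocrine factors, growth signals sent by endothelium to other liver cells, changed singly. Of them, 1 of 22 tested members rose and 1 fell without the block (leave-one-out 0 to 3 and 1 to 1), and 9 rose and 4 fell with it. Igf1, insulin-like growth factor 1, had 3.500, 2.38 and 1.86 CPM in co-cultured LSECs, against 30.9, 33.1 and 29.6 CPM in LSECs alone (log2 fold change -3.60 ± 0.27, adjusted p = 0.00227). The cultures also held macrophage transcripts, and which cells gave the Igf1 RNA was not tested. Wnt2, the central vein Wnt of LSECs, had 73.4, 65.3 and 72.8 CPM in co-culture and 46.9, 40.7 and 39.1 CPM alone (log2 fold change 0.73 ± 0.07 with the block, adjusted p = 5.4e-05), and Hgf, the hepatocyte growth factor, had 4.78, 14.7 and 13.9 CPM in co-culture and 1.74, 5.79 and 6.83 CPM alone (1.25 with the block). In the list of VEGF, angiopoietin and tip cell genes, 0 of 24 tested members rose and 0 fell without the block (leave-one-out 0 to 1 and 0 to 0), and 10 rose and 8 fell with it (leave-one-out 7 to 12 and 5 to 7). Without the block 5 of these had an unadjusted p under 0.05, and DESeq2 called 5 and limma 2. Plvap, the diaphragm protein of fenestrae, had 532, 347 and 362 CPM in co-culture and 232, 160.5 and 160.1 CPM alone and was higher with the block, and Adm, the vasodilator adrenomedullin, had 497, 476 and 447 CPM in co-culture and 663, 636 and 619.7 CPM alone and was lower with it. Of Notch genes, 0 of 16 tested members rose and 1 fell without the block (leave-one-out 0 to 0 and 0 to 1). With it, 4 rose and 3 fell (leave-one-out 2 to 5 and 3 to 3), against 16.7% and 16.6% of all tested genes. The fall without the block was Nrarp, a feedback target of Notch (-0.69).

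The caveolar gene Cav1 and 3 YAP target genes fell. Cav1, the coat protein of caveolae, had 74.6, 84.8 and 77.5 CPM in co-cultured LSECs, against 214, 273 and 269.7 CPM in LSECs alone (log2 fold change -1.69 ± 0.15, adjusted p = 0.00349). The lowest library alone was 2.52-fold above the highest co-culture library. Of the caveolae and fenestra list, 0 of 14 tested members rose and 1 fell without the block (leave-one-out 0 to 1 and 1 to 1), and 2 rose and 5 fell with it (leave-one-out 2 to 3 and 4 to 7), and Cav2 had 62.5, 94.1 and 94.6 CPM in co-culture and 74.2, 150.03 and 153 CPM alone and fell with the block only. Of TGF-beta, BMP and YAP genes, 1 of 23 tested members rose and 3 fell without the block (leave-one-out 0 to 0 and 0 to 3), and 7 rose and 5 fell with it (leave-one-out 4 to 8 and 4 to 6). The falls were the YAP targets Ccn2, with 1019.9, 1053 and 1058 CPM in co-cultured LSECs, against 1707, 1612 and 1701 CPM in LSECs alone, Ccn1, with 332, 329.6 and 315 CPM in co-cultured LSECs, against 546, 529.5 and 532 CPM in LSECs alone, and Ankrd1, with 36.3, 31.8 and 31.1 CPM in co-cultured LSECs, against 87.4, 68.8 and 65.9 CPM in LSECs alone. Amotl2, another YAP target of this list, passed in neither fit. Ccn2 was the most abundant gene that fell in both fits (log2 fold change -0.69 ± 0.13, adjusted p = 0.0455). The adaptor Bcar1 (-0.77) was another abundant fall. Of integrins, 3 of 17 tested members rose and 2 fell without the block (leave-one-out 3 to 3 and 0 to 1), and 6 rose and 3 fell with it. Among the leukocyte chains, Itgal (3.52), Itgam and Itgb2 rose and Itgax (-1.92) fell. Itgb5 (-1.15) fell as well.

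Macrophage genes moved in both directions. Of Kupffer cell identity genes, 1 of 17 tested members rose and 5 fell without the block (leave-one-out 1 to 1 and 1 to 4), and 5 rose and 6 fell with it. Vsig4 had 16.4, 17.5 and 16.01 CPM in co-cultured LSECs, against 78.9, 67.6 and 55.3 CPM in LSECs alone (log2 fold change -2.03 ± 0.18, adjusted p = 0.00349), and Cd5l, a secreted scavenger protein of resident macrophages, had 147, 111 and 106 CPM in co-cultured LSECs, against 498, 401 and 345 CPM in LSECs alone. Adgre1, the F4/80 antigen of the same cells, rose and had 451, 549 and 513 CPM in co-cultured LSECs, against 93.9, 134 and 116 CPM in LSECs alone (log2 fold change 2.12 ± 0.18, adjusted p = 0.00324), while Timd4 and Csf1r passed in neither fit. Of lipid-associated macrophage genes, 0 of 20 tested members rose and 4 fell without the block (leave-one-out 0 to 0 and 1 to 4). With it, 8 rose and 8 fell (leave-one-out 5 to 9 and 7 to 9). Abca1, Cd9, Abcg1, Tyrobp, Ctsl, Fabp5, Lpl and Ctsb were higher with the block only. Trem2, a lipid receptor of macrophages, fell most and had 2.55, 0.575 and 0.791 CPM in co-cultured LSECs, against 40.3, 20.01 and 17.9 CPM in LSECs alone (log2 fold change -4.32 ± 0.68, adjusted p = 0.0285). Gpnmb, a glycoprotein of phagocytes, had 50.4, 47.2 and 48.6 CPM in co-cultured LSECs, against 193, 250.1 and 225 CPM in LSECs alone, and Lgals3, galectin 3, had 69.99, 41.3 and 40.2 CPM in co-cultured LSECs, against 406, 244 and 227 CPM in LSECs alone. The cultures did not overlap for these 3 genes, which was a condition for naming them among the largest falls. Of 15256 tested genes, 1442 had all co-culture libraries below all libraries alone. The list named for Ms4a, Cd300 and inhibitory myeloid receptors also holds receptors that are not inhibitory, such as Clec4e and Clec7a. Of this list, 9 of 27 tested members rose and 4 fell without the block (leave-one-out 6 to 10 and 1 to 4), and 16 rose and 7 fell with it. Ms4a4a had 22.6, 32.6 and 27.6 CPM in co-cultured LSECs, against 0.629, 0.516 and 0.276 CPM in LSECs alone, and Ms4a6c and Ms4a6d rose by 3.62 and 2.34 on the log2 scale; the Ms4a6 genes are close relatives and uncertain singly. The C-type lectin Clec4e, a sensor of mycobacterial lipid, rose (2.94), and Clec7a, the beta-glucan receptor, fell (-1.50). The inhibitory receptor Cd300a had 5.56, 4.05 and 3.98 CPM in co-cultured LSECs, against 38.96, 30.2 and 27.6 CPM in LSECs alone, and Cd300lb (-2.21) and Cd300lf (-1.92) fell with it. The whole macrophage list summed to more in co-culture than alone in each same-numbered pair while these members fell, and the number of macrophages was not measured.

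Antigen presentation genes were mostly higher with the block. Of them, 1 of 22 tested members rose and 0 fell without the block (leave-one-out 0 to 4 and 0 to 0), and 18 rose and 0 fell with it (leave-one-out 14 to 18 and 0 to 1). H2-Ab1, a class II chain, rose, with 17.2, 9.41 and 9.303 CPM in co-cultured LSECs, against 3.19, 1.55 and 2.07 CPM in LSECs alone. The class I genes H2-K1 (0.48) and H2-T23 (0.64), the peptide loader Tapbp (0.87) and the class II chaperone Cd74 (1.65) passed with the block only; class I genes are near-identical and uncertain singly. Of checkpoint and costimulatory ligands, 4 of 16 tested members rose and 0 fell without the block (leave-one-out 2 to 5 and 0 to 0), and 8 rose and 3 fell with it. Cd274, the ligand PD-L1 of the T cell inhibitor PD-1, had 58.3, 76.96 and 73.4 CPM in co-cultured LSECs, against 13.8, 20.7 and 18.8 CPM in LSECs alone (log2 fold change 1.96 ± 0.21, adjusted p = 0.00665). Icosl, the ligand of the T cell costimulator ICOS, had 21.6, 24.3 and 19.3 CPM in co-cultured LSECs, against 1.32, 1.495 and 1.49 CPM in LSECs alone. Cd80 (1.49) and Cd200 (1.11) rose as well.

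The gene list with the most falls was the integrated stress response, the program by which the factors Atf4 and Atf5 raise amino acid synthesis and import. Of 24 genes in its list, 1 rose and 9 fell, and with the block 2 rose and 19 fell (leave-one-out 1 to 2 and 19 to 19), with a median log2 fold change of -0.89. Atf5 had 49.1, 34.9 and 33.9 CPM in co-cultured LSECs, against 197, 143 and 141 CPM in LSECs alone (log2 fold change -2.04 ± 0.23, adjusted p = 0.00876). Atf4 had 437, 337 and 329 CPM in co-culture and 1030.0, 718 and 709.9 CPM alone and missed the threshold without the block (log2 fold change -1.17 ± 0.22, adjusted p = 0.0507; log2 fold change -1.16 ± 0.05 with the block, adjusted p = 3.99e-07). Asns, asparagine synthetase, had 43.5, 33.3 and 31.5 CPM in co-cultured LSECs, against 112, 90.98 and 93.5 CPM in LSECs alone. Mthfd2, a mitochondrial folate enzyme, had 28.3, 21.9 and 21.6 CPM in co-cultured LSECs, against 83.1, 70.2 and 69.4 CPM in LSECs alone, and Chac1, a glutathione-degrading enzyme, had 7.33, 4.73 and 4.67 CPM in co-cultured LSECs, against 23.1, 18.7 and 20.5 CPM in LSECs alone. No library of 1 culture overlapped the other for these genes, which for Atf5 was a condition for naming it among the largest falls. Without overlap in this direction were 1442 of 15256 tested genes. The pseudokinase Trib3 (-1.45), the leucine transporter Slc7a5 (-1.21), the serine enzyme Psat1 (-0.91) and the proline enzymes Pycr1 (-1.27) and Aldh18a1 (-0.98) fell. Slc7a11, the cystine importer, rose instead, with 21.3, 32.3 and 31.8 CPM in co-cultured LSECs, against 5.07, 8.83 and 10.4 CPM in LSECs alone (log2 fold change 1.81 ± 0.31, adjusted p = 0.0388). The leave-one-out fits without the block gave 0 to 8 falls.

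**Figure D4:**
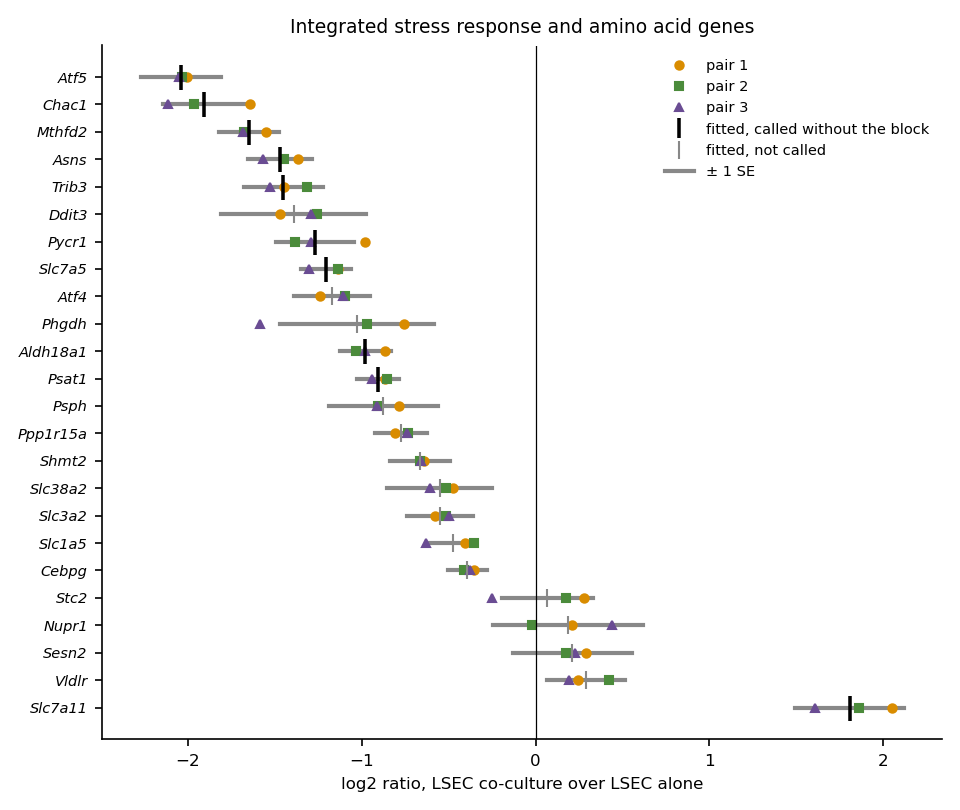
Log2 ratio of co-culture over LSECs alone for the 24 integrated stress response and amino acid genes: symbols are the 3 same-numbered pairs (CPM with 0.1 added), ticks the fitted log2 fold change without the block, and grey lines ± 1 standard error. From Atf5 down to Cebpg all 3 pairs lie below 0, and Slc7a11 alone lies far above it.

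Aminoacyl-tRNA synthetases, many of which belong to the same program, were also lower with the block: 0 of 20 tested members rose and 2 fell without the block (leave-one-out 0 to 0 and 0 to 1), and 1 rose and 15 fell with it (leave-one-out 0 to 1 and 12 to 15). Rars, the arginyl enzyme, had 388, 350.2 and 352 CPM in co-cultured LSECs, against 682, 579 and 569 CPM in LSECs alone (log2 fold change -0.76 ± 0.14, adjusted p = 0.0497), and Aars, the alanyl enzyme, fell by 0.75 on the log2 scale. Wars, the tryptophanyl enzyme that interferon induces, was the exception and was higher with the block (0.20). The core element bound by Atf4 was searched as TGATGNAA on either strand, a motif chosen after these values were seen. Of the 9 genes of the list that fell, 8 matched a RefSeq promoter and 4 of these held it, against 2.87% of tested genes, 5.76% of genes called higher, 11.6% of genes called lower and 3.97% of all promoters. Their matches are shown in capitals with 10 bases on either side, on mm10 (GRCm38.p6).
Asns, chr6:7693215-7693242, minus strand: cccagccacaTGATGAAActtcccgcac
Chac1, chr2:119351039-119351066, plus strand: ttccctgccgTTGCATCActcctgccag
Trib3, chr2:152344029-152344056, minus strand: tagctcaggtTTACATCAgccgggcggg
Pycr1, chr11:120643834-120643861, minus strand: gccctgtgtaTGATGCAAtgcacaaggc
Chac1 and Trib3 carry the motif on the opposite strand to the gene.

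Iron and antioxidant genes split. Of iron genes, 3 of 18 tested members rose and 2 fell without the block (leave-one-out 1 to 3 and 0 to 1). With it, 7 rose and 7 fell (leave-one-out 6 to 7 and 5 to 9), against 16.7% and 16.6% of all tested genes. Hmox1, the haem-degrading enzyme, was among the most abundant falls, with 812, 630.0 and 636 CPM in co-cultured LSECs, against 1515, 1280.2 and 1287 CPM in LSECs alone (log2 fold change -0.99 ± 0.17, adjusted p = 0.0385), and the iron exporter Slc40a1 had 106, 128 and 136 CPM in co-cultured LSECs, against 203, 294 and 279 CPM in LSECs alone. Cp, the copper ferroxidase ceruloplasmin, rose and had 29.7, 34.9 and 36.9 CPM in co-cultured LSECs, against 2.96, 4.08 and 4.15 CPM in LSECs alone. Of NRF2 and antioxidant genes, 2 of 26 tested members rose and 1 fell without the block (leave-one-out 0 to 2 and 0 to 1), and 5 rose and 14 fell with it (leave-one-out 5 to 5 and 9 to 15). Sod2, the mitochondrial superoxide dismutase, rose (1.77), and Gclm (-0.62) and Srxn1 (-0.53) fell with the block only. Mitochondrially encoded transcripts were 1.59%, 1.81% and 1.86% of counts in co-culture, against 1.16%, 1.43% and 1.42% alone. None of the 13 passed without the block, where 4 had an unadjusted p under 0.05 and DESeq2 called 2 and limma 0, and 11 were higher with it. None of 28 nuclear oxidative phosphorylation genes passed without it, where 0 had an unadjusted p under 0.05 and DESeq2 and limma called 0, and 0 rose and 6 fell with it (leave-one-out 0 to 4 and 1 to 5).

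No member of the glycolysis and hypoxia, cholesterol and fatty acid, unfolded protein response, ribosomal protein, proteasome, lysosome or cell cycle lists passed without the block, where 36 of their 211 tested members had an unadjusted p under 0.05, DESeq2 called 27 and limma 0. With it, 12 of 29 glycolysis and hypoxia genes rose and 3 fell (leave-one-out 8 to 14 and 2 to 5), and the unfolded protein response list, with 20 members, had 12 rises and 2 falls (leave-one-out 6 to 15 and 1 to 2). Hspa5, the chaperone BiP, had 930.5, 808 and 820.2 CPM in co-culture and 808, 675 and 669 CPM alone. Of 40 ribosomal protein genes 1 rose and 16 fell with the block (leave-one-out 0 to 6 and 4 to 16), and of 41 cell cycle genes 1 rose and 15 fell (leave-one-out 1 to 3 and 9 to 16). The cyclin Ccnd1 had 54.8, 65.3 and 55.7 CPM in co-culture and 72.9, 82.9 and 78.95 CPM alone, and the inhibitor Cdkn1a had 1304, 1200.3 and 1187 CPM in co-culture and 1827, 1607 and 1614 CPM alone. With the block, 10 of 26 cholesterol and fatty acid genes rose and 1 fell (leave-one-out 7 to 10 and 0 to 1), 6 of 26 proteasome and heat shock genes rose and 5 fell (leave-one-out 6 to 13 and 3 to 6), and 7 of 29 lysosome and autophagy genes rose and 8 fell (leave-one-out 4 to 9 and 6 to 9). Of all tested genes, 16.7% were higher and 16.6% lower with the block. Of p53 and apoptosis genes, 4 of 31 tested members rose and 0 fell without the block (leave-one-out 1 to 5 and 0 to 0), and 13 rose and 5 fell with it; the rises were the inflammasome sensor Nlrp3, with 49.4, 63.6 and 52.9 CPM in co-cultured LSECs, against 6.04, 11.1 and 10.6 CPM in LSECs alone, the inhibitors of apoptosis Birc2 (1.01) and Birc3 (0.91), and Bcl2a1d (2.50), whose near-identical copies make it uncertain.

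**Figure D5:**
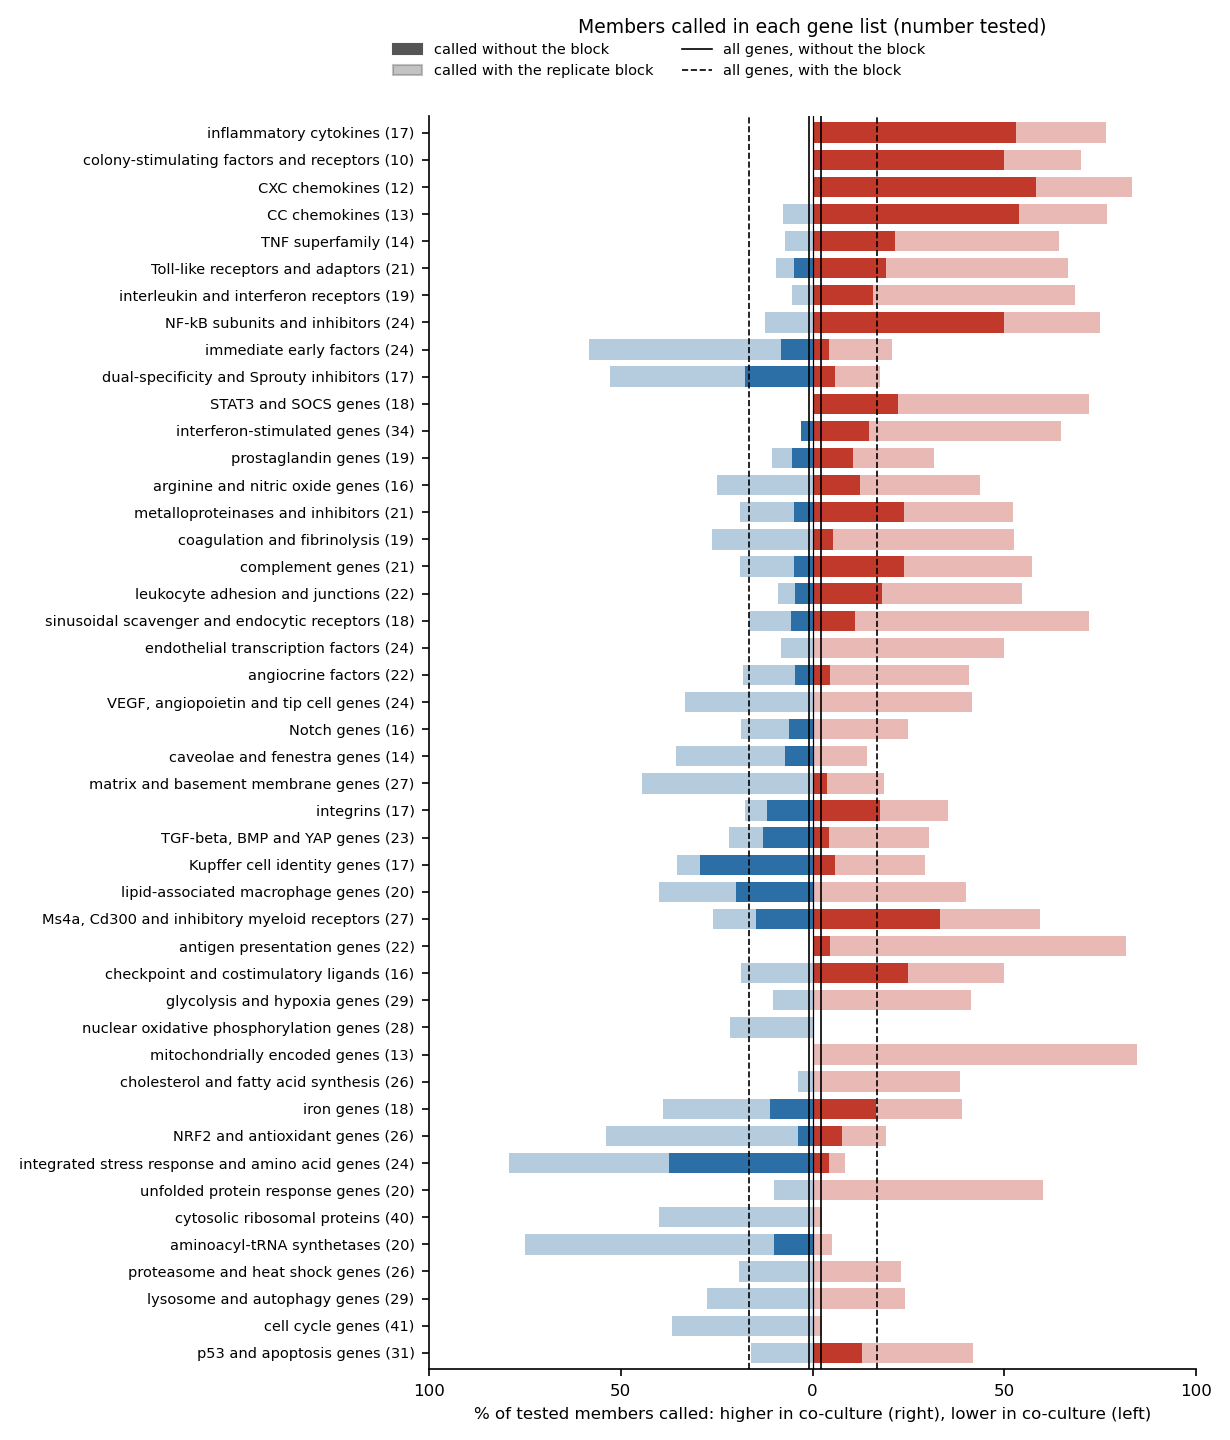
Share of each list's tested members called higher (right) or lower (left) in LSEC co-culture, without the block (dark) and with it (light); lines mark all tested genes. Cytokines, chemokines, colony-stimulating factors and NF-kB genes reach furthest to the right without the block, and integrated stress response genes furthest to the left.

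The remaining largest and most abundant changes fell outside the lists. Tmc3, a transmembrane channel-like gene, had 13.1, 30.6 and 25.3 CPM in co-cultured LSECs, against 0, 0.435 and 0.249 CPM in LSECs alone (log2 fold change 6.71 ± 0.88, adjusted p = 0.0150), and the dicarboxylate transporter Slc13a3 had 12.8, 10.5 and 10.8 CPM in co-cultured LSECs, against 0.0839, 0.353 and 0.111 CPM in LSECs alone. Among abundant genes that rose, Cyp1a1, the cytochrome induced by the aryl hydrocarbon receptor, had 641, 659 and 771 CPM in co-cultured LSECs, against 294, 328 and 285 CPM in LSECs alone (log2 fold change 1.18 ± 0.14, adjusted p = 0.0106). Neurl3, a ubiquitin ligase, had 738, 635 and 633 CPM in co-cultured LSECs, against 279, 240.4 and 238 CPM in LSECs alone, and Tgm2, tissue transglutaminase, had 667, 657 and 636 CPM in co-cultured LSECs, against 346, 395 and 371 CPM in LSECs alone. Lcp1, a leukocyte actin bundler (0.88), Lgals3bp, a galectin 3 binding glycoprotein (1.18), and Ehd1, an endosomal recycling protein (1.12), completed the 8 most abundant rises with Fcgr2b and Icam1. Among falls, Rgs1, a regulator of G protein signalling, had 4.47, 3.74 and 3.36 CPM in co-cultured LSECs, against 23.5, 31.5 and 23.1 CPM in LSECs alone, and Arhgap19, a GTPase-activating protein, had 5.49, 6.88 and 7.09 CPM in co-cultured LSECs, against 29.5, 40.7 and 34.7 CPM in LSECs alone. Soat2, which esterifies cholesterol, and Myo1f, a leukocyte myosin, also fell (log2 fold change -1.92 and -2.02). The mitochondrial chaperone Hspa9 (-0.72) and Ifrd1 (-0.69) were among the 8 most abundant falls.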

How the data were processed

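RNA of 12 mouse cell cultures was sequenced in paired ends from libraries of a stranded poly(A) kit (1 μg RNA, inserts of 200 to 400 bp), per the labels' protocols; 6 LSEC libraries are used. Reads were aligned with HISAT2 and quantified with StringTie on mm10, per the submitters' processing notes; versions, annotation and strand setting are not given in the sources used here. The deposited gene table gives, per the file headers, an estimated count, an FPKM and a TPM for each library. The deposited estimated counts are whole numbers and were tested as they stand; the authors' TPM values served 2 alternatives, and their FPKM values were not used. The deposited transcript table gave lengths and coordinates.

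The first-named cell in a co-culture title was taken as the one sequenced, and this was held against marker genes. Genes were filtered with filterByExpr, scaled by TMM and tested with edgeR 4.0.16 (robust quasi-likelihood, R 4.3.3), adjusted by Benjamini-Hochberg over all tested genes. DESeq2 1.42.0 and limma 3.58.1 were alternatives. The script was tested on simulated counts with 200 changed genes. CPM uses 1 scale over the 6 LSEC libraries unless the 12-library scale is named. Total counts are given with the results; limits from a count of 0 reflect counting error alone, as reads that are PCR copies of each other do not count separate molecules.

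Same-numbered libraries correlated in their deviations from the group means above the limit of 0.1 for all 3 numbers. By this rule, replicate number was used as a block. The rule cannot show pairing for numbers 2 and 3, which correlated as well with each other (0.473 and 0.400). Deviations were taken from the mean of 3 libraries, so a library apart in both groups shifts the others together. The fit with the block therefore assumes a pairing that was not shown for numbers 2 and 3. Genes were named by rule: adjusted p under 0.05, groups that do not overlap and a mean of at least 5 CPM, of which the 12 largest rises, 12 largest falls, 8 most abundant rises and 8 most abundant falls; and in each of 46 lists up to 6 members with the smallest p with the block and up to 2 called the other way. Other members are named where their result bears on their list. Predicted genes were counted but not named. The members and lists were chosen with earlier results of these data known. Promoters are RefSeq's, on GRCm38.p6, matched by symbol. A few genes are not reported here.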

Additional observations from a re-analysis of the deposited data

How the results depend on the processing

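The replicate block, which pairs same-numbered libraries, moved the count of called genes from 471 (332 higher, 139 lower) to 5082 (2550 higher, 2532 lower), and the count of called list members from 149 to 622. With the block and without number 1, 2 or 3, fits added after seeing the data, 5645, 3142 and 3973 genes were called (3008, 1775 and 2142 higher; 2637, 1367 and 1831 lower), with 688, 485 and 546 list members. A transcript length offset gave 1765 genes (1008 higher, 757 lower) and 354 list members without the block, and 5513 genes (2691 higher, 2822 lower) and 650 list members with it. Replicates 2 and 3 alone gave 5559 genes (2961 higher, 2598 lower) and 660 list members, all 12 libraries in 1 fit 1443 genes (909 higher, 534 lower) and 302 list members, and DESeq2 1301 genes (786 higher, 515 lower) and 292 list members. Without a filter on low counts 88 genes were lower. RLE scaling, a filter at 1 CPM and limma on log2(TPM + 1) or log2(TPM + 0.1) kept the total between 396 and 471. Leaving out 1 library gave 146 to 490 genes (124 to 353 higher, 17 to 137 lower), 70 to 160 list members and 20 to 36 of the 40 largest and most abundant genes. Why these counts moved was not tested. In none of these fits did a called fold change of the 337 named genes and list members change sign. Depth limits genes near 0.0846 CPM, and 3 libraries a group limit all tests.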

Other observations

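The gene families below were picked after their values were seen and carry no test of their own (single genes are given with edgeR's quasi-likelihood test). Of all tested genes, 2.18% were higher and 0.911% lower without the block, and 16.7% and 16.6% with it. Of other families counted, Gimap had 1 rise among 6 tested genes without the block and 5 with it. Rgs genes had 1 rise and 2 falls among 10, and 6 and 2 with the block. Src-family kinases had 3 rises among 9, and 4 rises and 2 falls with the block. Rac2, a small GTPase of the phagocyte NADPH oxidase, which makes superoxide, had 282, 180.0 and 171 CPM in co-cultured LSECs, against 58.4, 41.6 and 34.4 CPM in LSECs alone (log2 fold change 2.22 ± 0.30, adjusted p = 0.0159). Cybb, its catalytic subunit, had 269.6, 406 and 379.6 CPM in co-cultured LSECs, against 61.1, 116 and 109 CPM in LSECs alone (log2 fold change 1.88 ± 0.29, adjusted p = 0.0280). Both tested formyl peptide receptors, Fpr1 and Fpr2, rose in both fits, and 3 of 4 tested Slamf receptors rose without the block and 4 with it. These are genes of myeloid cells; the levels of the macrophage markers stand in the report, and their part in these values was not tested.

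Guanylate-binding proteins, interferon-inducible GTPases, had 6 rises and 1 fall among 10 tested genes without the block, and 9 and 1 with it. The shares of all tested genes were 2.18% and 0.911% without the block, and 16.7% and 16.6% with it. Gbp4 had 42.6, 51.5 and 46.4 CPM in co-cultured LSECs, against 13.2, 16.96 and 12.99 CPM in LSECs alone (log2 fold change 1.69 ± 0.17, adjusted p = 0.00522). Gbp8 was the one that fell, with 1.32, 1.31 and 1.12 CPM in co-cultured LSECs, against 3.56, 4.32 and 2.96 CPM in LSECs alone (log2 fold change -1.54 ± 0.22, adjusted p = 0.0196). Of the Serpina3 cluster, 6 of 7 tested genes rose in both fits, but these are near-identical copies whose reads the counting can divide among them, so single members are uncertain. Serpina3g had 322, 216 and 219.8 CPM in co-cultured LSECs, against 45.5, 35.5 and 33.8 CPM in LSECs alone (log2 fold change 2.71 ± 0.23, adjusted p = 0.00365).

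Metabolite receptors and transporters were also among the called genes. Hcar2, a receptor of nicotinic acid and ketone bodies, had 23.8, 18.3 and 16.9 CPM in co-cultured LSECs, against 2.85, 2.64 and 1.55 CPM in LSECs alone (log2 fold change 3.05 ± 0.29, adjusted p = 0.00527). Gpr84, a receptor of medium-chain fatty acids, had 71.6, 49.4 and 45.6 CPM in co-cultured LSECs, against 10.2, 8.83 and 7.19 CPM in LSECs alone (log2 fold change 2.65 ± 0.25, adjusted p = 0.00471). Of 224 tested solute carriers, 7 rose and 5 fell without the block, and 47 were higher and 50 lower with it. The shares of all tested genes were 2.18% higher and 0.911% lower without the block, and 16.7% and 16.6% with it. The nucleoside transporter Slc28a2 had 64.96, 64.3 and 60.9 CPM in co-cultured LSECs, against 3.59, 5.06 and 4.89 CPM in LSECs alone (log2 fold change 3.80 ± 0.18, adjusted p = 0.000526). The falls included the neutral amino acid transporters Slc7a5 and Slc1a4, and Slc7a5 had 36.9, 43.8 and 40.7 CPM in co-cultured LSECs, against 81.1, 96.4 and 100.3 CPM in LSECs alone.

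A few called genes had no count at all in LSECs alone. Calb2, a calcium-binding protein, had 216 counts over the 3 co-culture libraries and lay at least 71.6-fold above the level that 3 counts summed over LSECs alone would give. Il2ra, the interleukin 2 receptor alpha chain, had 65 counts and lay at least 21.9-fold above that level. Of 1113 tested long non-coding RNAs, 14 rose and 4 fell without the block (1.26% and 0.359%), and 98 rose and 74 fell with it (8.81% and 6.65%), against 2.18%, 0.911%, 16.7% and 16.6% of all tested genes.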
